A study of Rattus norvegicus with 23 samples.

Results

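Hepatic stellate cell genes were followed in whole rat liver through 10 genes named as markers of the quiescent or activated cell: Lrat, Des, Reln, Hgf, Ecm1, Rgs5, Pdgfrb, Pdgfra, Colec11 and Tcf21. They were taken by symbol from a table of 28913 rows. All 10 had a row, and all 10 were among the 15079 genes that passed the filter on low counts and were tested. The livers were from Sprague Dawley rats in a study that modelled portosinusoidal vascular disease, in which small hepatic vessels are damaged. Selfox rats (10 libraries) ate a selenium-enriched diet for 8 weeks and were injected intravenously each week, 8 times in all, with a chemotherapy mixture (3 mg/kg oxaliplatin, 25 mg/kg 5-FU, which is fluorouracil, and 45 mg/kg folinic acid). LPS rats (7 libraries) were injected with 1 mg/kg lipopolysaccharide 2 times a week during 8 weeks, through a portal catheter left in place after open surgery under anaesthesia. Control rats (6 libraries) were untreated, so surgery and catheter cannot be told apart from LPS, nor the diet from the drugs. Ages and sexes are not given, and nothing states that each library is a separate rat, so p-values measure the spread between libraries.

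Hepatic stellate cells lie in the space of Disse, between hepatocytes and the sinusoidal endothelium. At rest they store vitamin A as retinyl esters in lipid droplets and secrete growth factors and matrix regulators. After injury they can lose their droplets, acquire contractile filaments and deposit scar matrix, a change called activation, in which PDGF (platelet-derived growth factor) is a mitogen and TGF-beta drives matrix synthesis. They also wrap the sinusoid and can narrow it, which ties them to portal pressure.

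Library totals were 65113145 to 74809989 counts in Selfox, 70372293 to 79249765 counts in LPS and 31889957 to 53806710 counts in Control, so Control was the shallowest group. In 5 libraries (Selfox 8, LPS 5, LPS 6, LPS 7 and Control 55) the clock gene Dbp exceeded its antiphase partner Arntl. The term late-clock libraries is used for them, although in Selfox 8 the genes were nearly tied (log2 CPM 3.352 and 3.348). Leaving these libraries out also makes the groups smaller, LPS most of all. Whether calls were lost through clock phase or through fewer libraries was not tested. Control 55 also stood apart from the other controls on the second principal component (-5.25 against 18 to 30.91). Of 20 further stellate markers all 20 were detected and tested. Ngfr, another stellate marker, was close to absent, with at most 0.564 CPM (counts-per-million of the scaled library total) in any library. Several of the 10 genes are also known from other cells (Des and Rgs5 from vascular smooth muscle and pericytes, Pdgfra from portal fibroblasts, Hgf from endothelium, Ecm1 from hepatocytes). In whole liver, fewer cells of a type and less RNA per cell cannot be told apart.

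In Selfox livers the genes divided: Lrat, Des and Rgs5 rose relative to Control, and Hgf, Ecm1, Pdgfra and Colec11 fell. By edgeR's quasi-likelihood test with Benjamini-Hochberg adjustment, 7 of 10 passed, against 29.1% of all genes tested. Higher were 3 of 10 and lower 4 of 10, against 14.2% and 14.9% of all genes. In Selfox 1 gene (Rgs5) had every library above every control, against 2.37% of all genes, and 0 had every library below, against 2.55%. The median log2 fold change of the 10 was -0.0016, and the median of all genes was 0.01. In LPS livers 1 of 10 passed relative to Control, against 14.7% of all genes. It was Tcf21, which rose, and 0 fell, against 7.71% and 6.99% of all genes. By edgeR 2 of 10 had an unadjusted p under 0.05, 0 of them lower, and DESeq2 also gave 0 lower. Tcf21 alone had every LPS library above every control (1.83% of all genes did), and 0 genes had every library below (1.81%). The median log2 fold change of the 10 was 0.22, and that of all genes 0.01. Between the models, Rgs5 was higher and Hgf, Ecm1, Pdgfra, Colec11 and Tcf21 were lower in Selfox than in LPS. In all 6 of 10 passed, against 14.5% of all genes, with 1 of 10 higher and 5 lower, against 6.86% and 7.64% of all genes, with a median log2 fold change of -0.21 (0.0016 over all genes). Both models were compared with the same 6 controls, so their fold changes share that error. Reln and Pdgfrb passed in 0 of the 3 comparisons.

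**Figure D1:**
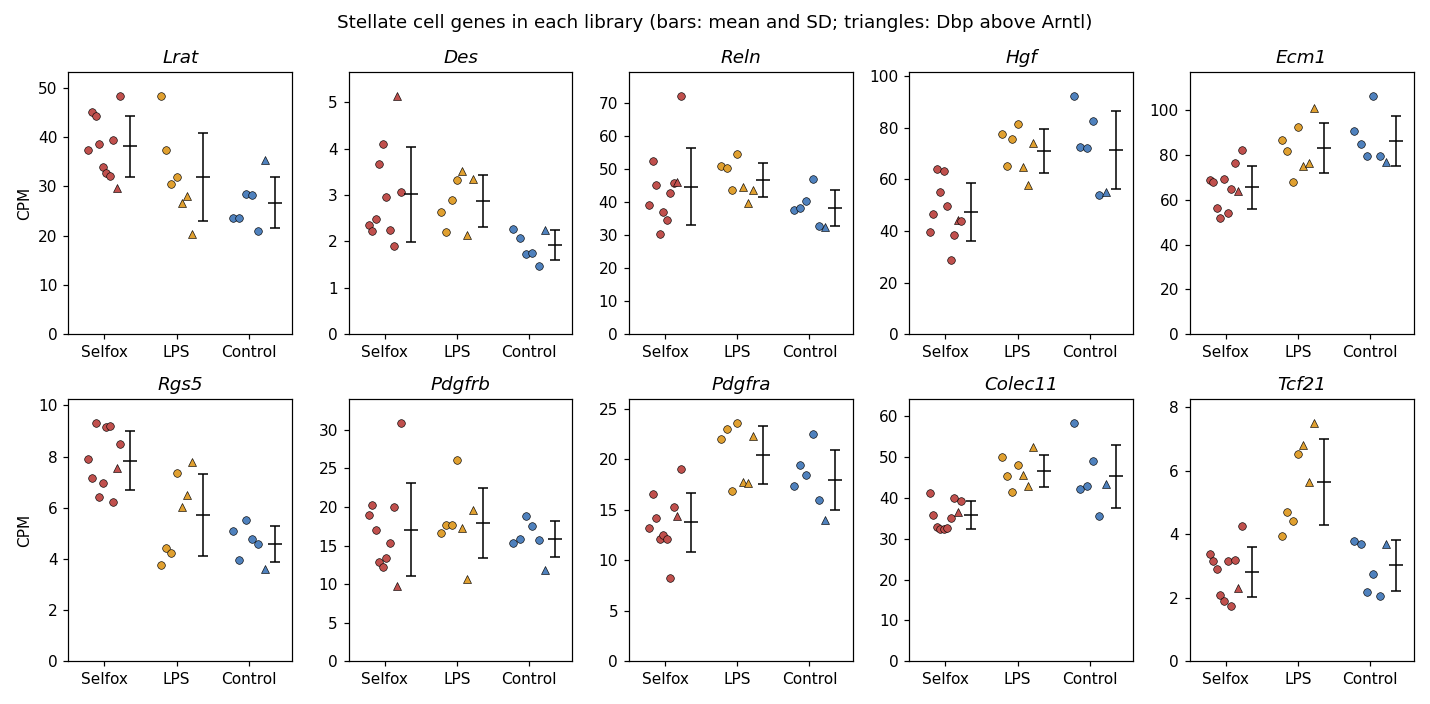
Level of each of the 10 stellate cell genes in CPM (vertical axis, each from 0) in the libraries of Selfox (n = 10), LPS (n = 7) and Control (n = 6); points are libraries, bars the mean and SD, and triangles the libraries with Dbp above Arntl. All 7 LPS points of Tcf21 lie above all Control points, all 10 Selfox points of Rgs5 lie above all Control points, and all 10 Selfox points of Colec11 lie below all LPS points.

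**Figure D2:**
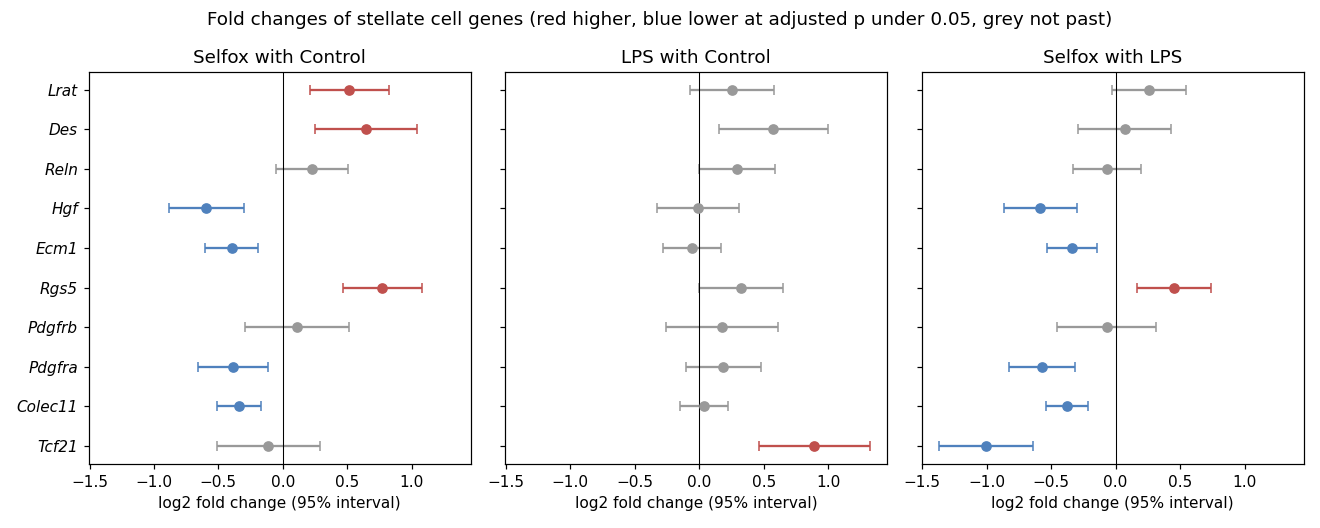
Log2 fold change with its 95% interval (horizontal axis) of each stellate cell gene in the 3 comparisons, from edgeR. Red points were higher and blue points lower at an adjusted p under 0.05, and grey points did not pass; Tcf21 stands at 0.89 in LPS with Control and at -1.005 in Selfox with LPS.

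Tcf21 encodes a basic helix-loop-helix transcription factor of mesenchymal cells, which in mouse liver marks stellate cells and portal fibroblasts. Its level ran from 1.76 to 4.27 CPM in Selfox (median 3.03), from 3.94 to 7.51 CPM in LPS (median 5.64) and from 2.05 to 3.79 CPM in Control (median 3.23). The LPS libraries all lay above the controls. LPS livers averaged 5.65 ± 1.35 CPM (SD, n = 7) and controls 3.03 ± 0.802 CPM (SD, n = 6), a log2 fold change of 0.89 ± 0.21 (SE, edgeR adjusted p = 0.00611). Within LPS the libraries 1, 2 and 3 held 3.94, 4.72 and 4.42 CPM, and the libraries 4 to 7 held 6.52, 6.80, 5.64 and 7.51 CPM. LPS 5, 6 and 7 are late-clock libraries, and without the late-clock libraries the rise was 0.75 with an adjusted p of 0.0470. In Selfox Tcf21 was lower than in LPS by a log2 difference of -1.005 ± 0.18 (adjusted p = 0.000531), and 9 of 10 Selfox libraries lay below every LPS library. Selfox and Control overlapped, with a log2 fold change of -0.11 and a 95% interval from -0.51 to 0.29.

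TCF21 binds E-boxes as a dimer with E proteins, and Id proteins titrate those partners. Of 9 tested genes of that kind, 2 were higher and 1 lower in Selfox than in Control, against 14.2% and 14.9% of all genes. Id4 rose by 1.68 ± 0.27 and Id2 by 0.73 ± 0.25 on the log2 scale, and Tcf3, which encodes the E protein E2A, fell by 0.42 ± 0.081. In LPS livers Id4 rose (0.84 ± 0.27, adjusted p = 0.0398) and 0 of the 9 fell, 0 also at an unadjusted p under 0.05 and by DESeq2. Between the models, Id4 was higher in Selfox than in LPS, and Id1 (-0.81 ± 0.21) and Tcf3 (-0.28 ± 0.077) were lower. With late-clock libraries left out, 1 of the 9 was lower there. Counts in this and the later lists stand beside the same shares of all genes called. The shares were 14.2% higher and 14.9% lower in Selfox with Control. They were 7.71% and 6.99% in LPS with Control, and 6.86% and 7.64% in Selfox with LPS.

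RefSeq promoter windows of build GRCr8, from 250 bases before to 50 after the annotated start, were matched by symbol for 9 of the 10 genes. They were searched on both strands for the E-box CAGCTG, of the kind bound by this factor class, and for AGATAA, a site of the zinc finger factors related to Gata4, which cannot overlap each other. The E-box stood in 3 of the 9 windows (Colec11, Des and Hgf) and in 15.1% of 33469 windows of that length. The second motif stood in 2 of the 9 (Colec11 and Tcf21) and in 11.6% of all windows. The windows of Lrat, Rgs5, Ecm1 and Pdgfra, genes that also moved in Selfox, held neither motif. The 4 windows that hold either motif are shown 5′ to 3′ on the gene's strand, with the motifs in capitals. They lie at chr1:24520249-24520548 (plus strand, Tcf21), chr6:50984796-50985095 (minus strand, Colec11), chr4:19700418-19700717 (minus strand, Hgf) and chr9:84299376-84299675 (plus strand, Des).
Tcf21: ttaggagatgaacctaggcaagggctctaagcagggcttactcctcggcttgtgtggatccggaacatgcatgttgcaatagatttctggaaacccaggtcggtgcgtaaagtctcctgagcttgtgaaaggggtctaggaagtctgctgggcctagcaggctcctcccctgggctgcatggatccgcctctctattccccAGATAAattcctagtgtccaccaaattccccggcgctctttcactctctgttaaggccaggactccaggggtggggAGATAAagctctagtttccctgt
Colec11: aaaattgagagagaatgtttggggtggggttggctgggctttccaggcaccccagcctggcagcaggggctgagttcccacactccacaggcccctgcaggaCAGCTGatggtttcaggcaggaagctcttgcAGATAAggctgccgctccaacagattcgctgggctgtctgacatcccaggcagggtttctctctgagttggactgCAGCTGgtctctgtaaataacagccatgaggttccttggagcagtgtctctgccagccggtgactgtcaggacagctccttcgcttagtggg
Hgf: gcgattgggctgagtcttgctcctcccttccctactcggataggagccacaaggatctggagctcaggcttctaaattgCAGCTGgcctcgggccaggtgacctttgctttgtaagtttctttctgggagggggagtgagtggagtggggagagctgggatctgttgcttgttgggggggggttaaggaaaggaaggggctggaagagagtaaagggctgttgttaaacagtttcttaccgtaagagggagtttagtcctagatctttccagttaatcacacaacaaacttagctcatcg
Des: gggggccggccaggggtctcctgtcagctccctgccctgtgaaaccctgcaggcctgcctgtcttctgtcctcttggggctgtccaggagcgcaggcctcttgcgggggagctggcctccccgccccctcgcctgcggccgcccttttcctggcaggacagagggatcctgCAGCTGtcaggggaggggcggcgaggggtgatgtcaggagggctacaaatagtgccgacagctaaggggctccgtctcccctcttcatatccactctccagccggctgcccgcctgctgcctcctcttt
In Colec11 the E-box began 148 and 42 bases before the start and the second motif 117 bases before it. The E-box of Hgf began 171 bases and that of Des 79 bases before the start. Tcf21 held the second motif 49 bases before and 28 bases after its start and no E-box of these letters. A TATA box, spelled TATAAA, stood in 1 of the 9 windows (Ecm1) and in 14.2% of all.
The nuclear receptor site AGGTCA stood in 1 window (Hgf) and in 16.2% of all. The CArG box, the site of serum response factor, stood in 0 of the 9 windows and in 1.64% of all. A match in letters is not evidence of binding.

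Lrat encodes lecithin retinol acyltransferase, which makes the retinyl esters that stellate cells store. It ran from 29.7 to 48.3 CPM in Selfox (median 38.0), from 20.4 to 48.4 CPM in LPS (median 30.4) and from 20.9 to 35.4 CPM in Control (median 25.9). Selfox livers averaged 38.2 ± 6.22 CPM (SD, n = 10) and controls 26.7 ± 5.17 CPM (SD, n = 6). The gene rose in Selfox by 0.52 ± 0.15 on the log2 scale (edgeR adjusted p = 0.0118), and 6 of 10 Selfox libraries lay above every control. The highest control was Control 55. LPS was the most spread group for this gene, with a coefficient of variation of 28.1% against 16.3% in Selfox and 19.4% in Control. LPS 1 held 48.4 CPM and LPS 7 held 20.4 CPM, below every control. LPS and Control did not differ past the threshold (0.26, 95% interval -0.07 to 0.58, adjusted p = 0.295). Without the late-clock libraries the LPS difference was 0.56 with an adjusted p of 0.0122.

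Around Lrat, 22 genes of retinoid storage and retinoic acid metabolism were tested. In Selfox 5 were higher and 3 lower than in Control (median log2 fold change -0.0077). The retinoic acid hydroxylases Cyp26a1 and Cyp26b1 rose by 1.97 ± 0.44 and 1.82 ± 0.65, the retinoic acid receptor Rarg by 0.81 ± 0.12 and the carotenoid oxygenase Bco2 by 1.31 ± 0.16. Both hydroxylases were at a low level, with 14 to 58 (Cyp26a1) and 8 to 36 (Cyp26b1) counts per control library. Cyp26b1 overlapped, with 0.383 to 2.51 CPM in Selfox and 0.224 to 0.804 CPM in Control. Pnpla3, a lipase that can cleave retinyl esters in human stellate cells, rose by 4.60 ± 1.22, but the groups overlapped and the controls were widely spread. It ran from 54.96 to 700.25 CPM in Selfox (median 322.49) and from 0.128 to 70.95 CPM in Control (median 1.44). The control libraries held 5 to 3176 counts of Pnpla3. Retsat, the retinol saturase, fell by 0.79 ± 0.12, Dgat1, which can also esterify retinol, by 0.28 ± 0.068, and Rbp4, the plasma retinol carrier, by 0.31 ± 0.085. In LPS 3 were higher and 4 lower than in Control (median 0.09). Bco2 (0.87 ± 0.17), Rarg (0.48 ± 0.13) and Pnpla3 (3.56 ± 1.19) were the risers. Pnpla3 overlapped with the controls here too, with 10.48 to 472.3 CPM in LPS. Retsat (-0.68 ± 0.13), Dgat1 (-0.27 ± 0.073), the lipase Lipe (-0.54 ± 0.18) and the retinal dehydrogenase Aldh1a1 (-1.57 ± 0.48) were lower. In Selfox compared with LPS, Cyp26a1 (1.86 ± 0.40), Aldh1a1 (1.42 ± 0.44) and Bco2 (0.44 ± 0.15) were higher, and Aldh1a3 (-0.56 ± 0.15) was among the 2 that were lower. That comparison had 1 higher and 0 lower with late-clock libraries left out. Hepatocytes express many of these genes too.

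Rgs5 encodes a regulator of G protein signalling that shortens the response of contractile cells to vasoconstrictors and marks pericytes. It ran from 6.22 to 9.32 CPM in Selfox (median 7.73), from 3.77 to 7.77 CPM in LPS (median 6.05) and from 3.62 to 5.52 CPM in Control (median 4.68). The Selfox libraries all lay above the controls. Selfox livers averaged 7.84 ± 1.16 CPM (SD, n = 10) and controls 4.59 ± 0.701 CPM (SD, n = 6), a log2 fold change of 0.77 ± 0.15 (edgeR adjusted p = 0.000526), the largest of the 10 genes in size in that comparison. The LPS libraries were spread: LPS 1, 2 and 3 held 3.77, 4.43 and 4.24 CPM, within the controls, and LPS 4 to 7 held 7.36, 6.05, 6.49 and 7.77 CPM, above every control. LPS and Control did not differ past the threshold (0.32, 95% interval -0.0036 to 0.65, adjusted p = 0.176). With late-clock libraries left out the difference was 0.046. Rgs5 was higher in Selfox than in LPS (0.45 ± 0.14, adjusted p = 0.0282), a call lost without LPS 1, LPS 2 or LPS 3 (adjusted p up to 0.0686).

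Des encodes desmin, the intermediate filament of muscle and a classical marker of rat stellate cells. It was the gene with the fewest counts, 53 to 349 per library. It ran from 1.90 to 5.14 CPM in Selfox (median 2.72), from 2.14 to 3.53 CPM in LPS (median 2.89) and from 1.46 to 2.26 CPM in Control (median 1.91). Des rose in Selfox by 0.65 ± 0.19 on the log2 scale (edgeR adjusted p = 0.0142, 7 of 10 above every control). The Selfox values were widely spread: Selfox 8 held 5.14 CPM, and Selfox 7 held 1.90 CPM, within the controls. The LPS difference was of similar size (0.57 ± 0.20) but did not pass (adjusted p = 0.0597), with 5 of 7 LPS libraries above every control. Selfox and LPS differed by 0.07 with a 95% interval from -0.29 to 0.43.

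Among 14 tested vasoactive receptors and RGS proteins, 2 were higher and 4 lower in Selfox than in Control (median -0.17). The angiotensin receptor Agtr1a fell by 0.54 ± 0.10, Rgs2 by 0.87 ± 0.19, the endothelin receptor Ednra by 1.48 ± 0.37 and Rgs1, a lymphocyte RGS gene, by 1.06 ± 0.31. The sphingosine-1-phosphate receptor S1pr2 rose by 1.88 ± 0.49 and Rgs16 by 1.84 ± 0.57, and for both the groups overlapped. S1pr2 ran from 5.10 to 69.6 CPM in Selfox and from 4.32 to 9.45 CPM in Control. Rgs16 ran from 27.8 to 210 CPM in Selfox and from 4.26 to 72.1 CPM in Control. In LPS 0 of the 14 passed by edgeR, where 2 higher and 3 lower had an unadjusted p under 0.05, and DESeq2 called 1 higher and 2 lower. In Selfox compared with LPS, S1pr1 (0.57 ± 0.12) and S1pr2 (1.56 ± 0.45) were higher, and Rgs1 (-1.36 ± 0.29), Agtr1a (-0.39 ± 0.096) and Ednra (-1.22 ± 0.35) lower. Leaving out late-clock libraries, 1 was higher in Selfox with Control, and 0 higher and 2 lower in Selfox with LPS. Rgs4, the neighbour of Rgs5 in the same protein family, did not pass in any of the 3 comparisons (0.85 ± 0.60 in Selfox with Control, adjusted p = 0.302).

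Of the PDGF receptor genes, Pdgfra passed the test in Selfox and Pdgfrb did not, and the difference between them was not tested. Pdgfra encodes the alpha receptor, which binds PDGF-A, -B and -C chains, and Pdgfrb the beta receptor, the main PDGF receptor of activated stellate cells. Pdgfra ran from 8.24 to 19.0 CPM in Selfox (median 13.7), from 16.9 to 23.6 CPM in LPS (median 21.99) and from 13.98 to 22.6 CPM in Control (median 17.9). Its lowest value was in Selfox 6, and 9 of 10 Selfox libraries lay below every LPS library. It averaged 13.8 ± 2.90 CPM in Selfox (SD, n = 10) and 20.5 ± 2.90 CPM in LPS (SD, n = 7), a log2 difference of -0.57 ± 0.12 (edgeR adjusted p = 0.00303). Against Control (18.0 ± 2.96 CPM, SD, n = 6) it fell in Selfox by 0.39 ± 0.13 (adjusted p = 0.0279), a call lost without Control 41, 46 or 49 (adjusted p up to 0.0959). LPS and Control did not differ past the threshold (0.19, 95% interval -0.11 to 0.48).

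Pdgfrb ran from 9.80 to 30.9 CPM in Selfox (median 16.2), from 10.7 to 26.1 CPM in LPS (median 17.6) and from 11.9 to 18.8 CPM in Control (median 15.8). Selfox 9 and LPS 4 were the high libraries, and the groups overlapped throughout. Its log2 fold change was 0.11 in Selfox with Control (95% interval -0.30 to 0.51), 0.18 in LPS with Control (-0.26 to 0.61) and -0.07 in Selfox with LPS (-0.45 to 0.31). Its spread in Selfox, a coefficient of variation of 35.1% against 14.8% in Control, was the widest of the 10 genes in any group. Of 11 tested PDGF ligands, co-receptors and adaptors, 3 were higher in Selfox than in Control, against 14.2% of all genes. The 3 were Pdgfb (2.07 ± 0.34, at 1.11 CPM against 0.268 CPM), Pdgfc (0.78 ± 0.24) and the co-receptor Nrp1 (0.54 ± 0.16). In LPS 0 of the 11 passed by edgeR (0 higher and 1 lower at an unadjusted p under 0.05) or by DESeq2. Pdgfb (1.67 ± 0.29) and Nrp1 (0.62 ± 0.15) were higher and the kinase subunit gene Pik3r1 (-0.68 ± 0.16) lower in Selfox than in LPS, with 1 higher when late-clock libraries were left out.

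Hgf encodes hepatocyte growth factor, the ligand of MET and a mitogen for hepatocytes that stellate cells secrete. It ran from 28.8 to 64.2 CPM in Selfox (median 45.3), from 57.8 to 81.5 CPM in LPS (median 74.1) and from 53.8 to 92.5 CPM in Control (median 72.3). Of the Selfox libraries 7 of 10 lay below every control and 8 of 10 below every LPS library. It averaged 47.3 ± 11.1 CPM in Selfox (SD, n = 10) and 71.5 ± 15.2 CPM in Control (SD, n = 6), and fell by 0.59 ± 0.14 on the log2 scale (edgeR adjusted p = 0.00311). Against LPS (71.0 ± 8.50 CPM, SD, n = 7) it was 0.58 lower in Selfox (-0.58 ± 0.14, adjusted p = 0.00537). LPS and Control differed by -0.0099 with a 95% interval from -0.33 to 0.31.

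Of 11 tested genes of HGF activation and MET signalling, 1 was higher and 2 lower in Selfox than in Control, against 14.2% and 14.9% of all genes. The protease inhibitor Spint2 rose by 0.29 ± 0.067, and the proteases Plau (-0.71 ± 0.18) and St14 (-0.54 ± 0.15), which can cleave pro-HGF, fell. Spint2 (0.24 ± 0.071) and hepsin, Hpn (0.19 ± 0.061), were higher in LPS than in Control. With late-clock libraries left out, 1 of the 11 was higher there. St14 (-0.66 ± 0.14), Plau (-0.74 ± 0.17) and the HGF activator Hgfac (-0.23 ± 0.077) were lower in Selfox than in LPS. The receptor gene Met did not pass in any comparison (-0.10, 95% interval -0.35 to 0.14, in Selfox with Control).

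Reln encodes reelin, a large secreted glycoprotein that in liver marks stellate cells whether quiescent or activated. It ran from 30.3 to 72.3 CPM in Selfox (median 44.1), from 39.8 to 54.7 CPM in LPS (median 44.5) and from 32.6 to 47.2 CPM in Control (median 38.1). Selfox 9 stood highest and Selfox 3 lowest, and all 3 groups overlapped. The log2 fold change was 0.23 in Selfox with Control (95% interval -0.05 to 0.50), 0.29 in LPS with Control (-0.0054 to 0.59) and -0.07 in Selfox with LPS (-0.33 to 0.19). Among 9 tested genes of the reelin receptors and their signalling, the adaptor Dab1 was lower in Selfox than in Control (-0.84 ± 0.26) and the kinase Fyn lower in LPS than in Control (-0.48 ± 0.13). Fyn (0.63 ± 0.11) and the integrin Itga3 (0.56 ± 0.16) were higher in Selfox than in LPS. With late-clock libraries left out, 2 of the 9 were lower in Selfox with Control. The receptor genes Vldlr and Lrp8 did not pass in any comparison.

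Ecm1 encodes extracellular matrix protein 1, which in mouse liver keeps TGF-beta in its latent form. It ran from 51.9 to 82.3 CPM in Selfox (median 66.6), from 68.1 to 101 CPM in LPS (median 81.9) and from 76.8 to 107 CPM in Control (median 82.3). In Selfox 9 of 10 libraries lay below every control, and the tenth, Selfox 9, lay within them. It averaged 65.6 ± 9.67 CPM in Selfox (SD, n = 10) and 86.4 ± 11.1 CPM in Control (SD, n = 6), and fell by 0.40 ± 0.099 on the log2 scale, or by 24.0% (edgeR adjusted p = 0.00429). Relative to LPS it was lower in Selfox by a log2 difference of -0.34 ± 0.095 (adjusted p = 0.0167). That call was lost without LPS 7 (adjusted p = 0.0519) and when late-clock libraries were left out (adjusted p = 0.0832). LPS and Control differed by -0.06 (95% interval -0.28 to 0.17).

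Of 19 tested genes of TGF-beta latency and response, 5 were higher and 2 lower in Selfox than in Control (median 0.02). Thbs1, an activator of latent TGF-beta, rose by 2.17 ± 0.47, Tgfb3 by 0.84 ± 0.26, the latency protein gene Ltbp4 by 0.45 ± 0.14 and the integrin Itgav by 0.28 ± 0.094. The receptor Tgfbr1 fell by 0.51 ± 0.10 and the inhibitory Smad7 by 0.55 ± 0.18. In LPS 3 were higher, Ltbp4 (0.54 ± 0.15), Ltbp1 (0.46 ± 0.15) and Tgfb3 (0.83 ± 0.27), and Tgfb2 was lower (-0.997 ± 0.27). In Selfox compared with LPS 1 was higher and 2 lower, and the lower ones were Smad7 (-0.60 ± 0.17) and Ltbp1 (-0.44 ± 0.13). With late-clock libraries left out, 3 of the 19 were higher and 3 lower in Selfox with Control, 1 higher and 0 lower in LPS with Control, and 0 either way in Selfox with LPS. Tgfb1 itself did not pass in any comparison (0.0044, 95% interval -0.28 to 0.28, in Selfox with Control).

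Colec11 encodes collectin-11, a soluble lectin that starts the lectin pathway of complement. It ran from 32.3 to 41.2 CPM in Selfox (median 35.3), from 41.3 to 52.4 CPM in LPS (median 45.6) and from 35.5 to 58.3 CPM in Control (median 43.2). All 10 Selfox libraries lay below all 7 LPS libraries, which 1% of all genes did in that direction, although the highest Selfox and lowest LPS values were 41.2 and 41.3 CPM. It averaged 35.8 ± 3.37 CPM in Selfox (SD, n = 10), 46.5 ± 3.93 CPM in LPS (SD, n = 7) and 45.2 ± 7.70 CPM in Control (SD, n = 6). The log2 fold change was -0.38 ± 0.079 in Selfox with LPS (edgeR adjusted p = 0.00243) and -0.34 ± 0.083 in Selfox with Control (adjusted p = 0.00376). In LPS with Control it was 0.04 (95% interval -0.15 to 0.23). Of 10 tested genes of the lectin pathway, 1 passed in Selfox with Control: the ficolin gene Fcna, which macrophages express, fell by 1.30 ± 0.21. In LPS Fcna was lower too (-0.74 ± 0.23) and C3 higher (0.32 ± 0.093), and both calls were lost with late-clock libraries left out, where 2 of the list were lower in Selfox with Control. The inhibitor gene Serping1 was lower in Selfox than in LPS (-0.33 ± 0.11). Colec10, the partner of collectin-11 in its heteromer, did not pass in any comparison (0.22, 95% interval -0.03 to 0.47, in Selfox with Control), nor did the proteases Masp1 and Masp2.

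The 20 other stellate markers also went both ways in Selfox, with 5 higher and 3 lower than in Control (median 0.07). Bmp10, a ligand of the endothelial receptor ALK1, rose by 1.40 ± 0.17 in Selfox (8.56 against 3.25 CPM) and by 0.62 ± 0.17 in LPS (5.01 against 3.25 CPM). Gdf2, which encodes BMP9, a ligand of the same receptor, fell in Selfox by 0.36 ± 0.098 and was lower than in LPS by a log2 difference of -0.63 ± 0.094, with every Selfox library below every LPS library. Nes, which encodes nestin, rose by 2.05 ± 0.33 in Selfox at a low level (0.526 against 0.125 CPM). Pparg, a regulator that opposes activation in culture and also acts in hepatocytes, rose by 0.99 ± 0.27, Bambi, a TGF-beta pseudoreceptor, by 0.54 ± 0.20, and Steap4 by 0.30 ± 0.11. Adamtsl2 (-0.79 ± 0.19) and the parathyroid hormone receptor Pth1r (-0.40 ± 0.14) fell. In LPS 1 of the 20 passed with edgeR (Bmp10), and 5 did with DESeq2 (4 higher, 1 lower). In Selfox compared with LPS, 4 were higher (Pparg at 1.52 ± 0.25, Nes at 1.60 ± 0.28, Bmp10 at 0.77 ± 0.15 and Bambi at 0.71 ± 0.19). Among the 4 that were lower were Gdf2, Adamtsl2 (-1.04 ± 0.18) and Pth1r (-0.40 ± 0.13), and 2 were lower with late-clock libraries left out.

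Of 22 tested genes of activation and scar matrix, 7 were higher in Selfox than in Control and 0 lower by edgeR (1 lower at an unadjusted p under 0.05, 0 by DESeq2 and 2 by limma voom). Limma voom called 6 higher there, and without the late-clock libraries 5 were higher and 1 lower. Acta2, the smooth muscle actin of activated stellate cells and of vessel walls, rose by 1.29 ± 0.16, at 10.2 CPM in Selfox and 4.18 CPM in Control, and Tagln rose by 0.51 ± 0.099. Ctgf (CCN2) rose by 1.31 ± 0.26 and the collagen cross-linking enzyme Loxl2 by 0.61 ± 0.14. Fbn1 and Thbs1 were also among the risers. The fibrillar collagen genes Col1a1, Col3a1, Col5a1 and Col5a2 did not pass in Selfox with Control by edgeR. Col1a1 stood at -0.43 (95% interval -0.91 to 0.04) and Col3a1 at 0.14 (-0.17 to 0.45). Col5a1 stood at 0.39 ± 0.15 (adjusted p = 0.0554) and Col5a2 at 0.31 ± 0.12 (adjusted p = 0.0535), and DESeq2 called 9 genes of the list higher. Both Col5a1 (0.43 ± 0.14) and Col5a2 (0.41 ± 0.11) were higher in Selfox than in LPS. Col1a2 is listed at 0 in all 23 libraries. The inhibitor Timp1, which activated stellate cells secrete, did not pass either (0.16 ± 0.20, adjusted p = 0.581). In LPS Ctgf rose (0.87 ± 0.27) and Loxl2 fell (-0.46 ± 0.15), while without late-clock libraries 0 of the 22 passed in either direction. In Selfox compared with LPS 7 of the 22 were higher, with Loxl2 at 1.07 ± 0.14 and Acta2 at 1.11 ± 0.15; without the late-clock libraries 3 were higher.

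Markers of other cell types moved beside these genes, and their part in the changes was not tested. Smooth muscle markers were higher for 7 of 12 in Selfox with Control, led by Acta2 and Lmod1 (1.19 ± 0.16). Their summed level ran from 543 to 692 CPM in Selfox, from 465 to 632 CPM in LPS and from 465 to 577 CPM in Control. Most of that sum came from Cald1 (median 431 CPM in Selfox and 354 CPM in Control) and Mylk (median 110 and 100 CPM). Acta2 and Tagln stand in both the smooth muscle and the activation lists, and Myh11, a defining smooth muscle marker, had a median of 7.23 CPM in Selfox, 6.70 CPM in LPS and 7.56 CPM in Control. Of 7 pericyte markers Mcam rose (0.92 ± 0.20) and Heyl fell (-1.13 ± 0.18) in Selfox. Higd1b, a defining pericyte marker, was at 0 counts in some libraries of every group and at most at 7. Of 11 portal fibroblast markers Dpt (0.89 ± 0.14) and Fbln2 (0.73 ± 0.20) rose in Selfox. The median log2 fold change of the 11 in Selfox with Control was -0.10. Their summed level was 390 to 731 CPM in Selfox, 277 to 491 CPM in LPS and 223 to 363 CPM in Control. That sum came mostly from Dpt (538 CPM in Selfox) and says little of the other markers. Mesothelial markers passed for 0 of 6 in each comparison by edgeR, with 0, 1 and 2 of them at an unadjusted p under 0.05 in Selfox with Control, LPS with Control and Selfox with LPS, and DESeq2 called 1 lower in Selfox with LPS.

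Sinusoidal endothelial markers passed for 3 of 10 in Selfox with Control, against 29.1% of all genes. Of these 1 was higher (Kdr, 0.46 ± 0.16) and 2 lower (Oit3, -0.42 ± 0.15, and Flt4, -0.39 ± 0.14). In LPS 0 of 10 passed by edgeR, against 14.7% of all genes (3 lower at an unadjusted p under 0.05, and 1 lower by DESeq2). Kupffer cell markers fell for 9 of 9 in Selfox relative to both other groups, with Marco at -2.94 ± 0.14 against Control. Their summed level was 251 to 388 CPM in Selfox, 616 to 936 CPM in LPS and 707 to 950 CPM in Control. Of 7 cholangiocyte markers, Epcam (0.83 ± 0.14) and Krt19 (0.59 ± 0.19) rose in Selfox, and Epcam (0.71 ± 0.14), Krt7 (1.44 ± 0.36) and Cldn4 (1.44 ± 0.37) rose in LPS. Krt7 and Cldn4 were at a low level, with 4 to 12 and 6 to 12 counts per control library. Hepatocyte markers went both ways in Selfox, with 4 of 10 higher and 4 lower than in Control.

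**Figure D3:**
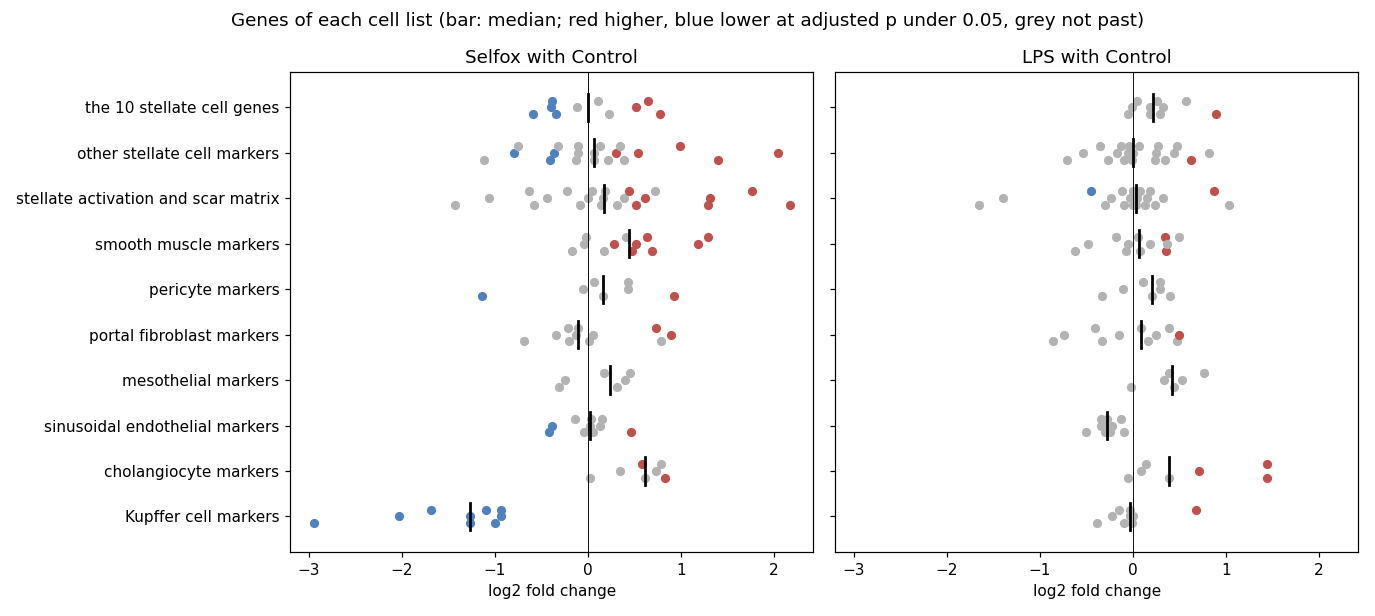
Log2 fold change (horizontal axis) of every tested gene of each cell list in Selfox with Control and LPS with Control; black bars are list medians, and colours mark genes past an adjusted p of 0.05. In Selfox the 10 stellate cell genes spread to both sides of 0 (median -0.0016), the smooth muscle markers lie mostly to the right (median 0.44) and all 9 Kupffer cell markers lie to the left (median -1.26).

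The 10 genes did not vary as a single block among libraries of a group. After each group's mean was subtracted, Pearson correlations of log2 CPM over the 23 libraries ran from -0.51 to 0.70 with a median of 0.19 across the 45 pairs, and 39 were positive. In a permutation test within groups with 100000 resamples, adjusted over the 45 pairs, 5 passed by Pearson's r and 4 of them also by Spearman's rho. Reln rose and fell with both PDGF receptors: with Pdgfra r was 0.70 and rho 0.81 (adjusted permutation p = 0.0207 and 0.00135), and with Pdgfrb r was 0.70 and rho 0.62 (adjusted permutation p = 0.0153 and 0.0420). Without Selfox 3 and Selfox 9, the libraries farthest from the median of Reln, r was 0.66 and 0.55. For each pair the libraries left out were chosen by the first gene named, not by its partner. Ecm1 and Colec11 had r of 0.69 and rho of 0.75 (adjusted permutation p = 0.00990 and 0.00450, r 0.67 without Control 49 and Selfox 9). Ecm1 and Pdgfra had r of 0.61 and rho of 0.68 (adjusted permutation p = 0.0327 and 0.0101, r 0.46 without the same 2 libraries). Ecm1 and Reln passed by r alone (0.67, adjusted permutation p = 0.0153, and 0.0527 for a rho of 0.56). Lrat had its highest correlation with Reln (r 0.41, adjusted permutation p = 0.138, and rho 0.46), and Rgs5 with Tcf21 (r 0.30). Lrat with Rgs5, the lowest pair, did not pass (r -0.51, adjusted permutation p = 0.138, r -0.23 without LPS 1 and LPS 7). Pooled values can hide differences between groups. Rgs5 with Tcf21 had r of 0.95 in LPS, 0.14 in Selfox and -0.54 in Control. Lrat with Tcf21 had r of -0.84 in LPS, 0.65 in Selfox and 0.27 in Control.

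**Figure D4:**
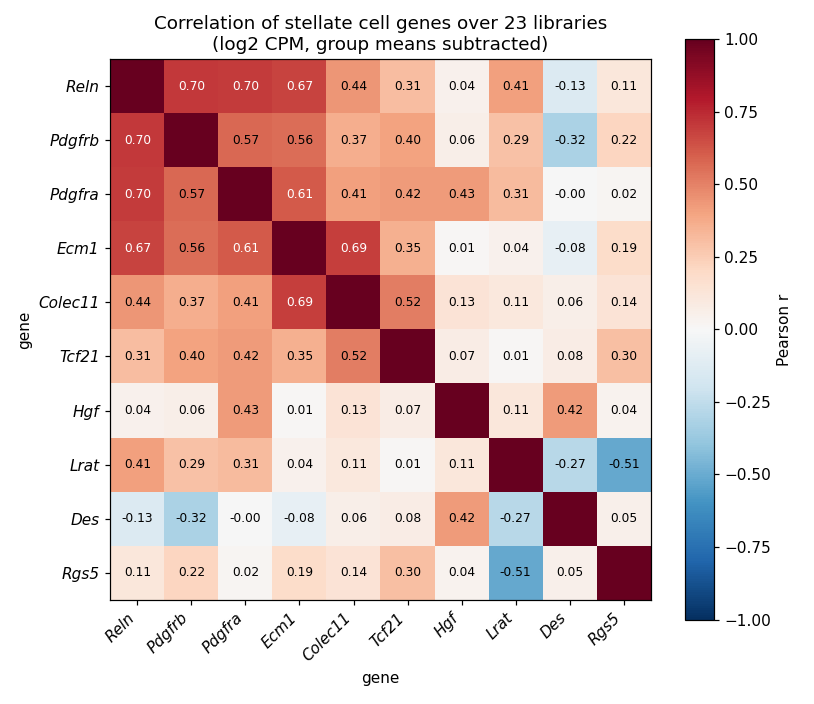
Pearson correlation (colour and number) between stellate cell genes over 23 libraries, from log2 CPM after subtraction of group means; both axes list the genes. The highest values (0.61 to 0.70) join Reln with Pdgfrb, Pdgfra and Ecm1, and Ecm1 with Pdgfra and Colec11, and Lrat with Rgs5 is the lowest pair (-0.51).

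Single libraries led several genes at once. Selfox 9 was the highest Selfox library for 6 of the 10 genes (Lrat, Reln, Ecm1, Pdgfrb, Pdgfra and Tcf21), and for 15% of all genes tested. LPS 4 was the highest in LPS for 4 (Reln, Hgf, Pdgfrb and Pdgfra) and LPS 7 for 4 others (Ecm1, Rgs5, Colec11 and Tcf21), while LPS 7 was the lowest for Lrat. Over all genes LPS 4 was highest for 14.4% and LPS 7 for 15.5%. Control 52 and Control 55 were each the lowest control for 5 genes, and for 14.5% (Control 52) and 22.9% (Control 55) of all genes.

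Among 10548 other genes whose log2 CPM averaged 1 or more, those most like each stellate gene over the 23 libraries, by the same group-centred Pearson correlation, were mostly outside the 10. Pdgfra was most like matrix genes: Col5a1 (r 0.86), Igsf10 (0.83) and the fibrillin gene Fbn1 (0.82). Reln was most like Ccdc80 (0.85), which encodes a matrix protein, Adcy5 (0.80) and Arap3 (0.77). For Lrat the nearest were Ociad2 (0.83), the caveolar gene Cavin2 (0.77) and Fxyd6 (0.75), and Reln was its nearest among the 10 at rank 671. For Tcf21 they were Bmp5 (0.77), Fads6 (0.74) and the smooth muscle gene Smtn (0.73). Hgf was most like Emp1 (0.75), the sphingosine-1-phosphate receptor S1pr3 (0.75) and Anxa1 (0.70). Colec11 was most like Minpp1 (0.71), Ecm1 (0.69) and Arhgap45 (0.69). Des was nearest to Il4r (0.84), Dhx32 (0.83) and Rab12 (0.82), Ecm1 to Atp2a3 (0.80), Arrb2 (0.79) and Lpcat1 (0.78), and Pdgfrb to Scarf1 (0.82) and Ppp1r16b (0.82) as well as LOC500124 (0.82). Rgs5 was nearest to an unnamed locus (0.78), Arel1 (0.68) and Cnot10 (0.68). Genes of one library share its depth and cell mixture, so these values describe the 23 libraries.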

How the data were processed

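The authors deposited integer read counts per gene for 23 rat liver libraries, made with a stranded mRNA kit per the labels' protocols. Reads were checked with FastQC, trimmed with Trim Galore, aligned with STAR 2.7.9a and counted with featureCounts of Subread 2.0.3, per the submitters' processing notes. For the genome build, the annotation and the strand option of featureCounts, the entry is not given in the sources used here. Genes that overlap or lie antisense to another are therefore uncertain. No 2 libraries of a group were identical or agreed within sampling noise.

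Genes were filtered with filterByExpr of edgeR (minimum count 10), which kept 15079 of 21753 genes with any count. Counts were scaled by TMM, and all 3 groups were fitted together by robust quasi-likelihood with edgeR 4.0.16 in R 4.3.3, with no covariate. P-values were adjusted by Benjamini-Hochberg over all genes tested (threshold 0.05), and each standard error is |log2 fold change|/√F. CPM used TMM-scaled totals, and log2 CPM a prior count of 2. The fit was tested on simulated data.

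The 10 genes, the 18 other lists (of 247 list entries, the 10 included, 241 had a row and 229 were tested) and the tests were chosen with earlier results of these data known. Named genes are the 10, up to 2 called genes per list and comparison, and 3 most alike per gene. Other genes of small counts, defining genes such as Col1a1, and those in runs of called genes were named after their values were seen. Alternatives were RLE and upper-quartile factors, 2 other filters (none, and a minimum count of 50), DESeq2 1.42.0, limma voom (3.58.1), 2 groups alone, equal depth, counts divided by 2, each library left out, no late-clock libraries and a replicate block. Columns mapped to no sample numbered 0. Promoter sequences are RefSeq's, GRCr8; the count table's build may differ, so they were joined by symbol. Some called genes of the lists are counted but not reported by name here. Lengths of transcripts were not used, so levels are not compared between genes, except that the order of Dbp and Arntl sorts libraries by clock phase.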

Additional observations from a re-analysis of the deposited data

Results flagged for a closer look

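The effects of the models differed for 6 of the 10 genes by the direct test of Selfox with LPS (edgeR, adjusted over all genes), which called 14.5% of all genes. The log2 difference was -1.005 for Tcf21, -0.58 for Hgf, -0.57 for Pdgfra, -0.38 for Colec11, -0.34 for Ecm1 and 0.45 for Rgs5. Tcf21 was higher in LPS than in Control, while the Selfox change was not past the threshold. Hgf, Pdgfra, Colec11 and Ecm1 were lower in Selfox than in Control, and their LPS changes did not pass. The Rgs5 call was lost without LPS 1, LPS 2 or LPS 3 (adjusted p of 0.0624, 0.0686 and 0.0673) and on the libraries numbered 1 to 7, and the Ecm1 call without LPS 7 (0.0519) or with late-clock libraries left out (0.0832). Of 30 groups of libraries checked for a single value far from the others, 0 held one, where chance alone flags about 1 in 20.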

How the results depend on the processing

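Over 320 fold changes of the 10 genes under settings other than leaving out a library, 309 kept their direction and side of the threshold. Lrat in LPS with Control passed without the late-clock libraries, and Des there passed with DESeq2 (adjusted p = 0.0404) and with the 2 groups alone (0.0262), so 2 genes were higher under each of these. Ecm1 in Selfox with LPS did not pass without the late-clock libraries, where 1434 genes changed in all, against 2187. The cause was not tested. Directions turned for small differences: Hgf in LPS with Control was 0.0043 with no filter, 0.0207 with limma voom and 0.0015 without the late-clock libraries, and Des in Selfox with LPS was -0.0546 with the replicate block and -0.0317 on the same libraries unblocked.

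With 1 library left out, the count of stellate genes higher was 1 to 2 in LPS with Control, 3 in each fit of Selfox with Control and 0 to 1 in Selfox with LPS, and the count lower was 0, 3 to 4 and 4 to 5. All genes changed numbered 1409 (without Control 49) to 2723 (without Control 55) in LPS with Control, 3638 to 4705 in Selfox with Control and no fewer than 1830 in Selfox with LPS. Small differences crossed 0. In LPS with Control, Hgf ran from -0.0797 to 0.0780, Ecm1 from -0.114 to 0.0074 and Colec11 from -0.0216 to 0.125. In Selfox with LPS, Des ran from -0.0468 to 0.129 and Pdgfrb from -0.206 to 0.0435. In Selfox with Control, Pdgfrb ran from -0.0271 (without Selfox 9) to 0.175. Lrat in Selfox with LPS passed without LPS 1 (0.40, adjusted p = 0.0428), and Des in LPS with Control without LPS 6 (adjusted p = 0.0441).

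LPS and Selfox share replicate numbers 1 to 7. Deviations of same-numbered libraries correlated at -0.06 to 0.16, over 0.1 in 1 of 7 pairs, and 1 of 7 correlated best with its own number. These values give no sign that the numbers pair the libraries, but they cannot exclude it. With the replicate block on these libraries 0 stellate genes were higher, 5 lower and 1259 genes changed in all. Unblocked, 0 were higher, 5 lower and 1617 changed. Rgs5 had an adjusted p of 0.106 and 0.101 there. Des, Tcf21 and Rgs5 rest on 53 to 689 counts per library, which limits their precision most in the shallower controls.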

Other observations

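The portal fibroblast marker Thy1 was higher in Selfox than in LPS by 1.64 ± 0.35 (edgeR adjusted p = 0.00282), at 0.320 CPM in Selfox and 0.101 CPM in LPS; 0 portal fibroblast markers were higher there with late-clock libraries left out. Lyve1 (0.50 ± 0.11) and Kdr (0.69 ± 0.15), receptors of sinusoidal endothelium, were higher in Selfox than in LPS, where 1 of that list was higher and 2 lower with late-clock libraries left out. Apoa1, an apolipoprotein of hepatocytes, was lower in Selfox than in Control (-1.02 ± 0.15) and in Selfox than in LPS (-0.62 ± 0.14). Hepatocyte markers lower in Selfox than in LPS numbered 3, and 1 with late-clock libraries left out. The urea cycle genes Ass1 and Cps1 were higher in Selfox (0.77 ± 0.11 and 0.53 ± 0.12) and in LPS (0.61 ± 0.12 and 0.59 ± 0.13) than in Control.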
